A study of Mus musculus with 4 samples.

Results

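The 48 genes described here belong by name to families of enzymes that place methyl groups on histone lysines (writers) or remove them (erasers). Among them are 4 non-enzyme partners of the writers. They were selected by symbol from the 24421 genes listed for RNA sequencing of CD69+DP thymocytes: all listed genes named Kmt, Setd, Setdb, Suv39h, Ezh, Ehmt or Nsd with a digit, all named Kdm with a digit except the Y-linked *Kdm5d*, and *Whsc1*, *Whsc1l1*, *Ash1l*, *Eed*, *Suz12*, *Dot1l*, *Mllt6* and *Mllt10*. This gave 31 writers and 17 erasers, which were classed by name, and activity on histones is not settled for each of them. Each of the 31 writers and 16 of the 17 erasers passed the filter on low values, which asked for 2 or more samples with an FPKM of 1 or more. FPKM is here a read count divided by gene length and by a scaling factor of the sample. The exception was *Kdm4d*, a testis-enriched H3K9 demethylase, for which the controls had 3 and 4 reads and the Foxa1/2cKO samples 0 and 2, where a count of 0 allows up to 3 reads or 0.104 FPKM.

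Cells were CD4+CD8+ thymocytes bearing CD69, a marker of cells that have received a signal through the T-cell receptor, sorted from adult thymus of C57BL/6 mice at 6 weeks of age. All mice carried floxed alleles of both transcription factor genes (Foxa1 fl/fl Foxa2 fl/fl). The 2 Foxa1/2cKO samples, called the first and the second knockout below in the order of their replicate numbers (Foxa1/2cKO 1 and Foxa1/2cKO 2), also carried CD4Cre, which is driven by *Cd4* regulatory sequences and acts in the T lineage, and the 2 control samples did not. The samples were sorted separately from different mice, and whether more than 1 mouse entered a sample is not clear from the sources used here. *Foxa1* and *Foxa2* were listed at 0 in each of the 4 samples, so their levels could not be used to check the genotypes.

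Histone methylation marks the state of chromatin. H3K4 methylation lies at active promoters and enhancers, H3K36 and H3K79 methylation over transcribed genes, H3K27 trimethylation at genes silenced by Polycomb, and H3K9 methylation in heterochromatin. In the thymus these marks change as CD4+CD8+ cells become CD4 or CD8 single-positive cells, and removal of H3K27 methylation by *Kdm6a* and *Kdm6b* is known to take part in the late steps of that maturation. Fewer cells of a type and less RNA per cell cannot be told apart in these bulk samples.

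The recovered reads per sample ranged from 10393356 to 14477908, and the tested writers and erasers had from 70 reads (*Suv39h2*) to 27233 reads (*Kmt2d*) in a sample. Foxa1/2cKO 2 stood apart from the other samples. It held the highest summed level of 7 DP thymocyte markers, at 3108 FPKM against 2406 to 2482 in the other samples, and the lowest summed level of 6 cycling markers (*Mki67*, *Top2a*, *Cdk1*, *Ccnb1*, *Ccna2* and *Birc5*), at 131 FPKM against 361 and 381 in the controls and 420 in Foxa1/2cKO 1. Of 5 mature single-positive markers the summed level was 174 FPKM in Foxa1/2cKO 2 and 228 to 261 FPKM in the other samples. The 5 B cell markers summed to 50.3 to 104 FPKM and the 5 myeloid markers to 9.39 to 19.7 FPKM, with Foxa1/2cKO 1 and control 1 the highest 2 samples in both lists. The sums of the erythroid and thymic epithelial lists were 4.18 FPKM or less in each sample. Their part in the results below was not tested, and each result is given per sample for that reason.

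In control cells the most abundant writer or eraser transcript per length was *Kdm6b*, which encodes the H3K27 demethylase JMJD3, with 116 and 110 FPKM. It was followed by *Kmt2d*, the H3K4 methyltransferase of enhancers, at 91.8 and 95.6 FPKM, and by *Ezh2*, the catalytic subunit of Polycomb repressive complex 2 (PRC2), at 85.2 and 87.6 FPKM. *Mllt6*, a partner of the H3K79 methyltransferase, was at 71.3 and 78.95 FPKM. Among H3K9 writers *Ehmt2*, the G9a dimethyltransferase, was highest, with 65.1 to 69.1 FPKM over the 4 samples, whereas *Suv39h2* was at 1.47 to 2.09 FPKM. *Setd2*, which trimethylates H3K36, led its group at 31.1 to 34.6 FPKM. Among erasers, *Kdm1a*, the LSD1 demethylase of H3K4, stood at 63.5 to 78.96 FPKM, *Kdm3a*, an H3K9 demethylase, at 46.3 to 62.7, *Kdm2a*, an H3K36 demethylase, at 42.3 to 52.4, and *Kdm4a*, which acts on H3K9 and H3K36, at 45.1 to 50.9. The lowest tested eraser was *Kdm8*, at 5.86 to 5.99 FPKM.

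Promoter windows from RefSeq (GRCm38.p6, 250 bases before to 50 after a start site) were listed for 36 of the 48 genes, with 49 windows. They were searched on both strands for TGTTTAC, the core of the forkhead motif that FOXA proteins bind, and for the E2F motifs TTTCCCGC, TTTCGCGC, TTTGCCGC and TTTGGCGC, E2F being the factor family of S-phase genes. The forkhead core was present in 2 of the 49 windows (4.08%), those of *Eed* and *Kdm2b*, and in 3.65% of the 32851 windows of all genes. An E2F motif was present in 3 of the 49 (6.12%), those of *Ezh2*, *Suv39h1* and *Suz12*, and in 2.26% of all windows. No match of either kind was found in the windows of *Kdm6a*, *Kmt2d*, *Mllt6* or *Setd8*, and *Setd1b* and *Whsc1* were among the genes not listed. A match is a run of letters and not a binding site. The 4 windows printed here hold a match in genes of the H3K27, H3K9 and H3K36 results, 5′ to 3′ on the gene's strand, with the match in capitals: an E2F motif in *Ezh2* and *Suv39h1*, and the forkhead core in *Eed* and *Kdm2b*.
Ezh2, chr6:47594981-47595280, minus strand: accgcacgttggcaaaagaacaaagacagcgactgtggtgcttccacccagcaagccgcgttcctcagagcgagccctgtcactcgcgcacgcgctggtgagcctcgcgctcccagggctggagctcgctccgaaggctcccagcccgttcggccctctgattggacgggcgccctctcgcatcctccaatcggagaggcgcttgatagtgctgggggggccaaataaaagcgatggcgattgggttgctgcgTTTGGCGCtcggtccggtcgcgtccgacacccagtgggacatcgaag
Suv39h1, chrX:8074312-8074611, minus strand: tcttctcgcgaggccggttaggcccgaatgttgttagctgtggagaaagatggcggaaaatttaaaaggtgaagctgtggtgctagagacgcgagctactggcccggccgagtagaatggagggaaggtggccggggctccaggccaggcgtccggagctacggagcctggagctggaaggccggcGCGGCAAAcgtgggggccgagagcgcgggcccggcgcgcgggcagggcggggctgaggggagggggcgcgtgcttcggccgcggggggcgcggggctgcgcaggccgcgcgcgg
Eed, chr7:89980927-89981226, minus strand: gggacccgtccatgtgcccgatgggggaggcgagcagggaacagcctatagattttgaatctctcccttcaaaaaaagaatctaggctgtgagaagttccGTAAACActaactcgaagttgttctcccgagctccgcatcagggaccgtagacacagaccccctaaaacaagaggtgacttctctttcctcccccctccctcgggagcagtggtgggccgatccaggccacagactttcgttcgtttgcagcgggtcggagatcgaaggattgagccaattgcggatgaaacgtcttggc
Kdm2b, chr5:122989050-122989349, minus strand: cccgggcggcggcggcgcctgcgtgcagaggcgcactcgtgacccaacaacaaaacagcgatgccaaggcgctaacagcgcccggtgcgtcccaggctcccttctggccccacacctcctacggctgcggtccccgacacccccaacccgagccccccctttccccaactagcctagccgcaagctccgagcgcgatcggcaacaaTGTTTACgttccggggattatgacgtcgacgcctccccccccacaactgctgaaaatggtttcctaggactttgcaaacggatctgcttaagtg

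The comparison of Foxa1/2cKO with control asked which of these transcripts differ once the 2 transcription factors are deleted, in cells at the start of positive selection. No writer or eraser passed limma's Benjamini-Hochberg adjusted threshold of 0.05, the lowest adjusted p being 0.863. Over all 10776 genes tested 1 gene (0.00928%) passed. The exact permutation test of 2 against 2 samples cannot give a p below 0.333, so the values below are differences given with their standard error (SE) and 95% interval from limma, and none survives correction over all genes. At an unadjusted p under 0.05, 4 of 31 writers were lower (*Setd8*, *Kmt2d*, *Mllt6* and *Setd1b*) and 1 was higher (*Setd4*), against 2.15% lower and 2.39% higher over all genes tested. Of 16 erasers 1 was higher (*Kdm6a*) and none lower.

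Both Foxa1/2cKO samples lay below both controls for 8 writers and above both for 6, while the groups overlapped for 17. The corresponding shares of all genes tested were 17.8% below and 18.9% above. Among the erasers 7 lay above both controls and 1 (*Kdm8*, which was at 5.99 and 5.97 FPKM in the controls and 5.95 and 5.86 in the knockouts) below, and 8 overlapped. The median log2 fold change was -0.02 for writers (range -0.48 to 0.36), 0.19 for erasers (range -0.12 to 0.30) and 0.005 for all genes tested. The mean was above the control mean for 14 of 31 writers and for 14 of 16 erasers, against 51.3% of all genes tested.

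**Figure D1:**
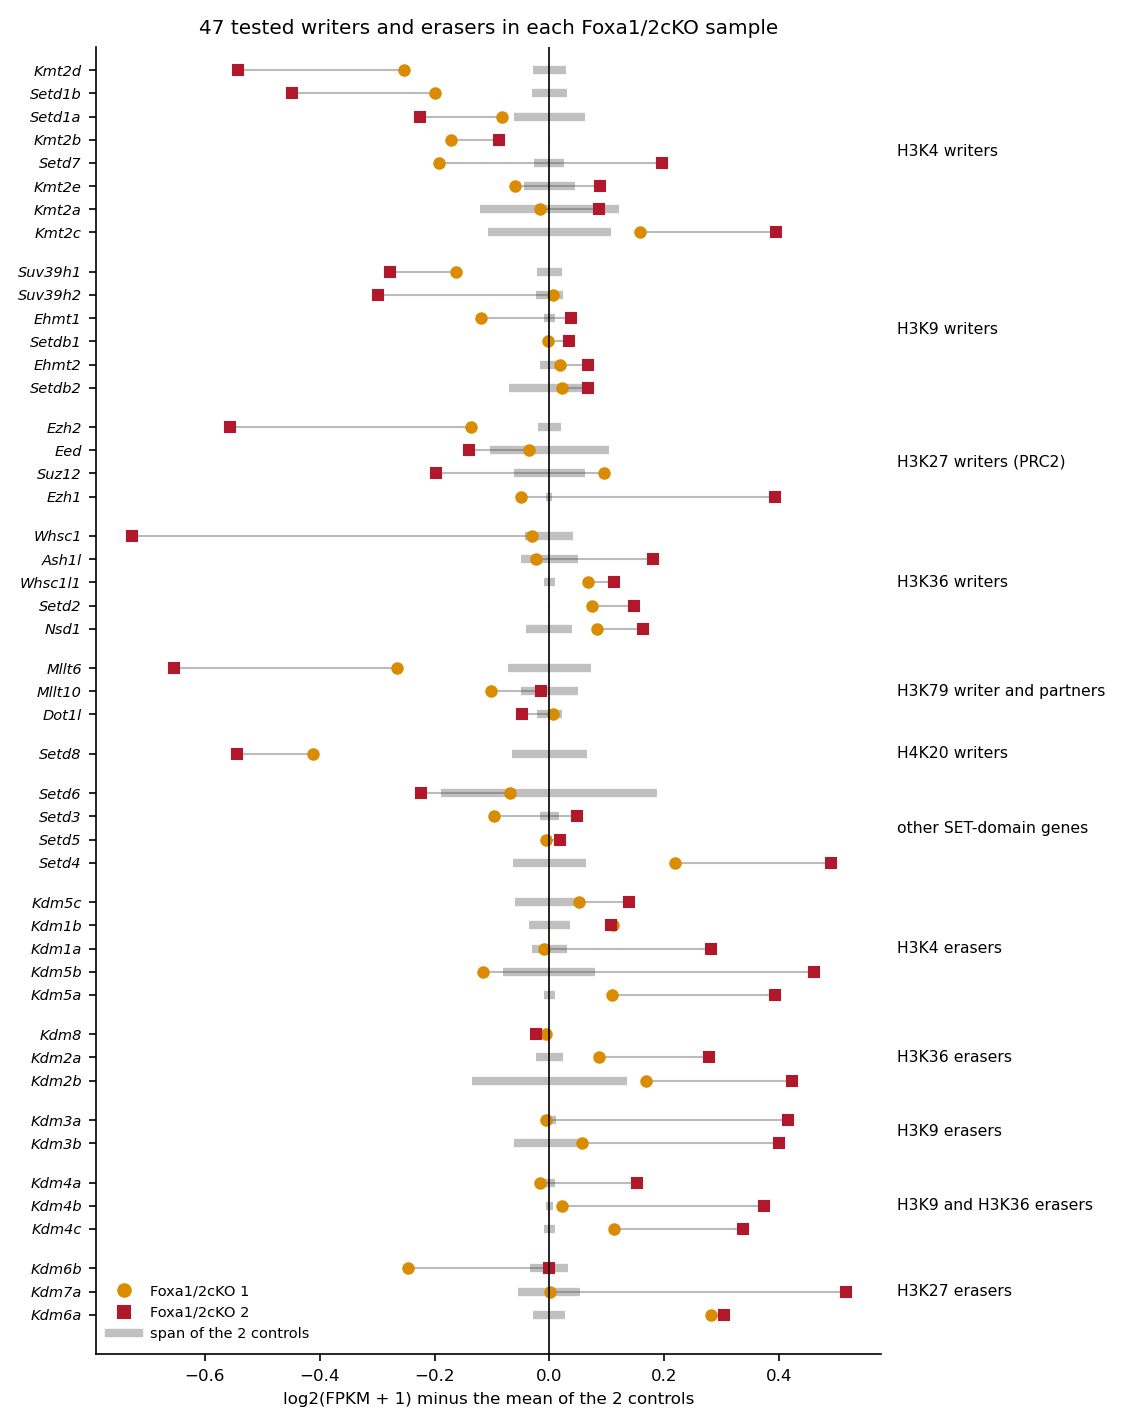
Each row is 1 of the 47 tested genes, grouped by the histone mark assigned to it, and the x axis is log2(FPKM + 1) minus the mean of the 2 controls. Circles are Foxa1/2cKO 1, squares are Foxa1/2cKO 2, and the grey bar spans the 2 controls. *Setd8*, *Kmt2d*, *Setd1b* and *Mllt6* lie left of the controls in both samples, *Kdm6a* lies right in both, and of the 14 erasers right of both controls in Foxa1/2cKO 2 only 7 are so in Foxa1/2cKO 1.

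The shift of the erasers rested mainly on Foxa1/2cKO 2. In that sample the median eraser was 0.32 above the control mean on the log2 scale and in Foxa1/2cKO 1 it was 0.04 above, with the controls at 0.03 and -0.03. Accordingly, 14 of 16 erasers exceeded both controls in Foxa1/2cKO 2 and 7 of 16 did so in Foxa1/2cKO 1, where the shares of all genes tested were 46.3% and 36.4%. The median writer was at 0.02 in Foxa1/2cKO 2 and at -0.04 in Foxa1/2cKO 1. In Foxa1/2cKO 2, 14 of 31 writers were above and 14 below both controls, near the shares of all genes tested (46.3% above and 39.6% below). In Foxa1/2cKO 1, 7 were above and 16 below, against 36.4% and 40.7% of all genes tested. Summed over the class, writers were at 1123 and 1141 FPKM in the controls and 1065 and 1033 in the Foxa1/2cKO samples, and erasers at 596 and 573 in the controls, 582 in the first knockout and 706 in the second. The eraser sum of Foxa1/2cKO 1 lay between the controls.

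**Figure D2:**
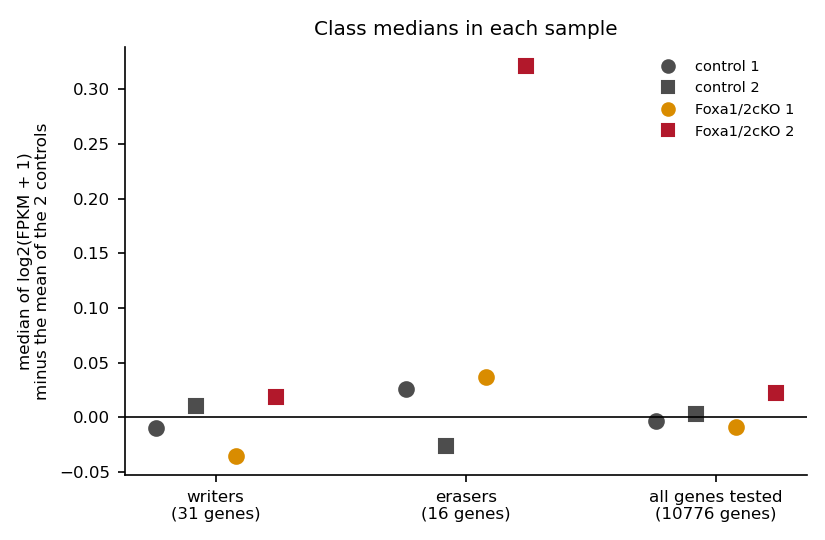
The y axis is the median over genes of log2(FPKM + 1) minus the mean of the 2 controls, for 31 writers, 16 erasers and 10776 tested genes, with 1 point per sample. The eraser median of Foxa1/2cKO 2, at 0.32, is set apart, and the other points lie between -0.04 and 0.04.

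Of the H4K20 and H3K4 writers selected by symbol, 3 were lower in both knockout samples with an unadjusted p under 0.05 from limma. *Setd8* (*Kmt5a* in RefSeq, chr5:124439930-124462311), the monomethyltransferase of H4K20 needed for chromosome condensation and replication, was at 40.6 and 44.5 FPKM in the controls and 31.7 and 28.8 FPKM in the Foxa1/2cKO samples. The groups did not overlap, and the gap between them was wider than the spread within either group. The log2 fold change was -0.48 (SE 0.10, n = 2 each, 95% interval -0.74 to -0.22), with the lowest p of the 47 genes, and it stayed between -0.54 and -0.41 as each sample was left out. *Kmt2d* (chr15:98831669-98874077) was at 91.8 and 95.6 FPKM in the controls, 78.4 in the first knockout and 63.9 in the second, with a log2 fold change of -0.40 (SE 0.12, 95% interval -0.72 to -0.07). *Setd1b*, which encodes a catalytic subunit of the SET1 complexes that trimethylate H3K4 at promoters, was at 35.3 and 36.9 FPKM in the controls, 31.3 in the first knockout and 26.2 in the second (log2 fold change -0.32, SE 0.12, 95% interval -0.63 to -0.02). For both genes Foxa1/2cKO 2 was the lowest sample, and without it the log2 fold changes were -0.25 and -0.20.

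The other H3K4 writers did not move as a group. *Kmt2c*, the close relative of *Kmt2d*, was higher in both knockout samples, at 25.3 and 21.7 FPKM in the controls and 26.3 and 31.1 in the Foxa1/2cKO samples, with a log2 fold change of 0.28 (SE 0.13, 95% interval -0.07 to 0.62) that was 0.16 without Foxa1/2cKO 2 and 0.17 without control 2. *Setd1a* and *Kmt2b* lay below both controls in each knockout sample, and *Kmt2a*, *Kmt2e* and *Setd7* overlapped. Of the 8 H3K4 writers 4 lay below both controls in both knockout samples and 1 above, beside 17.8% and 18.9% of all genes tested. The group median of -0.06 was -0.001 without Foxa1/2cKO 1, -0.13 without Foxa1/2cKO 2 and -0.14 with the length correction.

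**Figure D3:**
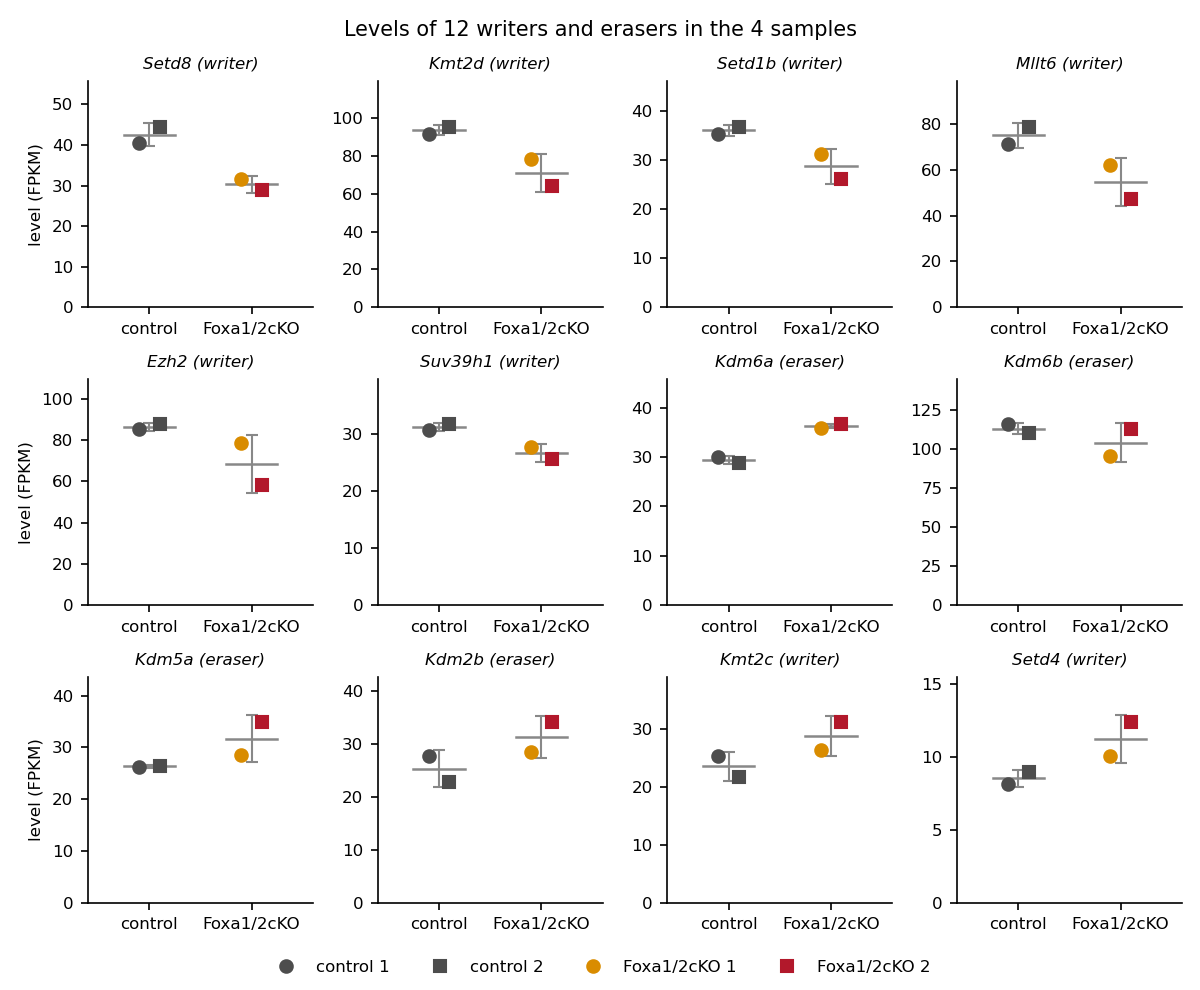
Each panel shows 1 gene, with FPKM on a y axis that starts at 0. Points are the 4 samples, and the grey line and bar are the mean and SD of each group (n = 2). *Setd8* and *Kdm6a* separate the groups with narrow spread, while in *Ezh2*, *Kmt2d* and *Mllt6* the lowest point is Foxa1/2cKO 2, and *Kdm6b* is lowest in Foxa1/2cKO 1.

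For H3K27 the catalytic subunits *Ezh2* and *Ezh1* went opposite ways in Foxa1/2cKO 2. *Ezh2* (chr6:47530274-47595270) was at 85.2 and 87.6 FPKM in the controls, 78.5 in the first knockout and 58.4 in the second. The log2 fold change was -0.35 (SE 0.16, 95% interval -0.76 to 0.07), -0.14 without Foxa1/2cKO 2 and -0.56 without Foxa1/2cKO 1. Its promoter window and that of *Suz12* hold an E2F motif. Such a motif was in 6.12% of the windows of these genes and in 2.26% of all windows. Whether it has a part in the levels of *Ezh2* or *Suz12* was not tested. *Ezh1*, the relative used more in non-dividing cells, was at 20.01, 19.9 and 19.2 FPKM in the other samples and 26.5 FPKM in Foxa1/2cKO 2. The core subunits *Eed* and *Suz12*, which hold the PRC2 enzyme in its complex, were at 26.6 to 31.7 and 49.8 to 61.2 FPKM and their groups overlapped. The summed cycling markers were also lowest in Foxa1/2cKO 2 (131 FPKM, against 361 to 420), and whether they account for the *Ezh2* difference was not tested.

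Of the 3 H3K27 demethylases only *Kdm6a* separated the groups. *Kdm6a* (UTX, chrX:18160862-18279936) was at 30.1 and 28.9 FPKM in the controls and 36.01 and 36.6 FPKM in the Foxa1/2cKO samples. This was the eraser with the lowest p, with a log2 fold change of 0.29 (SE 0.08, 95% interval 0.08 to 0.51), and the fold change was 0.28 without Foxa1/2cKO 2 and 0.30 without Foxa1/2cKO 1. *Kdm6b* (chr11:69398508-69420367) was at 116 and 110 FPKM in the controls, 95.02 in the first knockout and 113 in the second, and its groups overlapped (log2 fold change -0.12, 95% interval -0.42 to 0.18, and -0.001 without Foxa1/2cKO 1). *Kdm7a*, which acts on H3K9 and H3K27, was at 12.9 FPKM in Foxa1/2cKO 2 and 8.39 to 9.12 in the other samples.

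*Kdm6a*, *Kdm5c* and *Suv39h1* lie on the X chromosome, and *Kdm6a* and *Kdm5c* are known to escape X inactivation. *Xist* was at 84.1 to 114 FPKM in all samples, and the Y-linked *Ddx3y* and *Eif2s3y* were listed at 0 with *Uty* at 0.0172 FPKM or less, so no Y-linked transcript set the groups apart. *Kdm5c*, an H3K4 demethylase, was at 32.8 and 30.1 FPKM in the controls and 32.6 and 34.7 in the Foxa1/2cKO samples, with a log2 fold change of 0.09 (95% interval -0.15 to 0.34). *Suv39h1*, which trimethylates H3K9 in heterochromatin, was at 30.7 and 31.7 FPKM in the controls and 27.8 and 25.6 in the Foxa1/2cKO samples. The groups of *Suv39h1*, with an E2F motif in a promoter window but not in its other listed window, did not overlap (log2 fold change -0.22, SE 0.09, 95% interval -0.46 to 0.02). Whether the motif has a part in this difference was not tested.

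As with *Suv39h1*, the intervals of the other H3K9 writers each held 0. *Setdb1*, the methyltransferase recruited by KAP1, was at 29.5 FPKM in both controls and 29.4 and 30.2 FPKM in the knockout samples, and its log2 fold change was 0.02 (95% interval -0.20 to 0.23). That of *Ehmt2* was 0.04 (95% interval -0.17 to 0.25). *Suv39h2* was at 2.09 and 1.99 FPKM in the controls, 2.06 in the first knockout and 1.47 in the second, with 70 reads in the last.

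Among genes for H3K36 and H3K79, *Mllt6* (AF17, chr11:97663122-97685461) showed the widest difference. It was at 71.3 and 78.95 FPKM in the controls, 62.3 in the first knockout and 47.3 in the second. The log2 fold change was -0.46 (SE 0.16, 95% interval -0.87 to -0.05) and -0.27 without Foxa1/2cKO 2. The enzyme itself, *Dot1l*, was at 42.2 to 44.3 FPKM in all samples (log2 fold change -0.02, 95% interval -0.24 to 0.20), and the partner *Mllt10* at 23.5 to 26.2 FPKM. Of the H3K36 writers, *Setd2*, *Nsd1* and *Whsc1l1* (NSD3) lay above both controls in both knockout samples by small amounts, and *Setd2* had a log2 fold change of 0.11 (95% interval -0.11 to 0.33). *Whsc1* (NSD2) was at 17.2 and 18.3 FPKM in the controls, 17.3 in the first knockout and 10.3 in the second, so its groups overlapped and its lower level was seen in 1 sample.

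*Setd4* and *Setd5* belong to SET-domain genes whose histone target is less settled. *Setd4* was at 8.13 and 8.96 FPKM in the controls and 10.1 and 12.4 in the Foxa1/2cKO samples, which did not overlap (log2 fold change 0.36, SE 0.13, 95% interval 0.003 to 0.71). The value was 0.22 without Foxa1/2cKO 2, and an unadjusted p under 0.05 was lost there, without either control, with no filter on low values and with limma-voom on the recovered reads. *Setd5* was at 45.1 to 45.8 FPKM in all samples, the narrowest range of the named genes relative to its level.

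Beside *Kdm6a*, other erasers lay above both controls in both knockout samples. They were *Kdm5a* and *Kdm1b* (H3K4 demethylases), *Kdm2a* and *Kdm2b* (H3K36 demethylases), and *Kdm4b* and *Kdm4c*. *Kdm5a* was at 26.1 and 26.5 FPKM in the controls, 28.5 in the first knockout and 34.9 in the second, with a log2 fold change of 0.25 (SE 0.12, 95% interval -0.07 to 0.57). *Kdm2b*, which also targets a Polycomb complex to CpG islands, was at 27.8 and 22.9 FPKM in the controls and 28.5 and 34.1 in the knockout samples. Its log2 fold change was 0.30 (SE 0.15, 95% interval -0.09 to 0.68), and the first knockout sample exceeded the higher control by less than the controls differed. The forkhead core lay in a promoter window of *Kdm2b* but not in its other listed windows. The core was in 4.08% of the windows of these genes and in 3.65% of all windows. *Kdm4c*, a demethylase of H3K9 and H3K36, was at 15.2 and 15.0 FPKM in the controls and 16.4 and 19.3 in the knockout samples (log2 fold change 0.22, SE 0.11, 95% interval -0.07 to 0.52). In each of these 3 genes Foxa1/2cKO 2 was the highest sample, and without it the log2 fold changes were 0.11 for *Kdm5a*, 0.17 for *Kdm2b* and 0.11 for *Kdm4c*. That of *Kdm5a* was 0.39 without Foxa1/2cKO 1, and that of *Kdm2b* was 0.16 without control 2. For *Kdm2a*, at 43.8 and 42.3 FPKM in the controls and 45.8 and 52.4 in the knockout samples, the log2 fold change was 0.18 (95% interval -0.08 to 0.45), 0.09 without Foxa1/2cKO 2 and 0.28 without Foxa1/2cKO 1.

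*Kdm1a*, *Kdm3a* and *Kdm4a* were higher in Foxa1/2cKO 2 alone. *Kdm1a* was at 63.5 and 66.2 FPKM in the controls, 64.4 in the first knockout and 78.96 in the second, and *Kdm3a* at 47.1, 46.3, 46.6 and 62.7 FPKM in the same order. Without Foxa1/2cKO 2 their log2 fold changes, 0.14 and 0.21 with all samples, were -0.01 for each. For *Kdm4a* the value was 0.07 with all samples and -0.02 without Foxa1/2cKO 2. The H3K4 demethylase *Kdm5b* was at 46.0 and 41.1 FPKM in the controls and, in the knockouts, at 40.02 and 60.2, below and above both controls. *Kdm3b*, which acts on H3K9, was at 42.4 and 38.9 FPKM in the controls, 42.3 in the first knockout and 53.97 in the second.

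Ratios of related enzymes within a sample do not depend on the scaling between samples. The pairs were chosen after the values had been seen, so the ratios are a description. *Ezh2* to *Ezh1* was 4.26 and 4.41 in the controls, 4.08 in the first knockout and 2.21 in the second. *Kmt2d* to *Kmt2c* was 3.62 and 4.40 in the controls and 2.98 and 2.05 in the knockout samples. *Kdm6b* to *Kdm6a* was 3.84 and 3.82 in the controls and 2.64 and 3.08 in the knockout samples, a ratio that was lower in each. *Whsc1* to *Whsc1l1* was 0.971 and 1.017 in the controls, 0.926 in the first knockout and 0.533 in the second. *Setd1b* to *Setd1a* was 0.950 and 0.908 in the controls and 0.854 and 0.792 in the knockout samples. In contrast, *Kmt2a* to *Kmt2b* was higher in both knockout samples, at 0.6954 and 0.7066 against 0.6805 and 0.5715 in the controls. The ratios of the *Ezh* and *Whsc1* pairs thus left the control range by much more in Foxa1/2cKO 2 than in Foxa1/2cKO 1, whereas that of the *Kdm6* pair was lowest in Foxa1/2cKO 1.

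**Figure D4:**
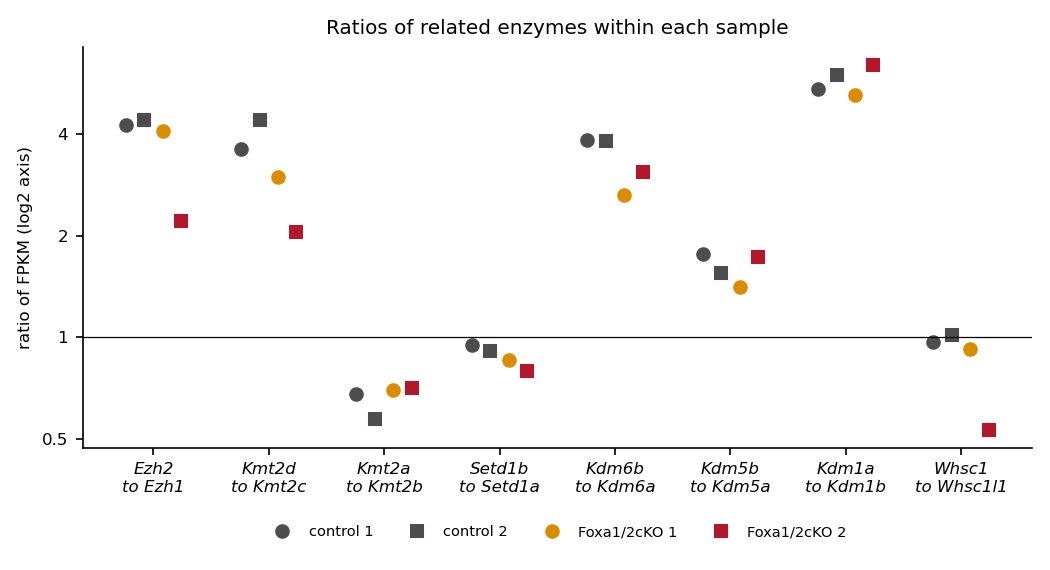
The y axis (log2 scale) is the ratio of FPKM of 2 related enzymes within a sample, with 1 point per sample for each of 8 pairs. *Kdm6b* to *Kdm6a*, *Kmt2d* to *Kmt2c* and *Setd1b* to *Setd1a* lie below the controls in both knockout samples. *Ezh2* to *Ezh1* and *Whsc1* to *Whsc1l1* do so mainly in Foxa1/2cKO 2. *Kmt2a* to *Kmt2b* lies above the controls in both, and *Kdm5b* to *Kdm5a* and *Kdm1a* to *Kdm1b* overlap.

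Other genes of these pathways were described from lists of 54 genes, all of which were tested: 38 partners of the enzymes and 16 further methylation enzymes that the symbol rule does not cover. Of the 38 partners 3 lay above and 8 below both controls in both knockout samples, beside 18.9% above and 17.8% below for all genes tested, and their median log2 fold change was -0.004. None of the partners reached an unadjusted p under 0.05. Of the 16 enzymes 3 lay above and 6 below, and the median was 0.04. Among these 16, 1 gene in each direction had an unadjusted p under 0.05, beside 2.39% higher and 2.15% lower over all genes tested. These were the only such genes among the 54. *Suv420h2*, which makes H4K20 di- and trimethylation from the mark that *Setd8* places, was at 29.8 and 28.2 FPKM in the controls and 22.4 and 21.1 in the knockout samples (log2 fold change -0.40, SE 0.09, limma adjusted p = 0.863). Its relative *Suv420h1* was at 26.8 and 27.3 FPKM in the controls, 25.2 in the first knockout and 33.7 in the second, and overlapped. *Jmjd1c*, a relative of *Kdm3a* and *Kdm3b*, was at 26.99 and 26.0 FPKM in the controls and 31.2 and 33.9 in the knockout samples (log2 fold change 0.29, SE 0.09, limma adjusted p = 0.863). The partner lists held COMPASS and MLL partners, PRC2 accessory subunits, CoREST subunits, H3K9 cofactors, and H3K36 and H3K79 partners.

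Many of these genes are long, with a median of 5694 bases for writers and 5318.5 for erasers against 2756 for all genes tested, and the median log2 fold change over all genes tested was higher in longer genes, at -0.02 for genes of up to 1000 bases and 0.10 for those over 8000 bases. In the length class of 4000 to 8000 bases, with 25 writers and erasers, the median was 0.03 for all genes, -0.01 for writers and 0.20 for erasers. After correction for length the medians were -0.06 for writers and 0.14 for erasers. *Kmt2d*, with 19827 bases, then had a log2 fold change of -0.53 and *Kdm6a*, with 5265 bases, 0.26. The differences of several other long genes shrank, to 0.16 for *Kmt2c* and *Kdm5a*, 0.04 for *Setd2* and 0.002 for *Kdm5c*. The median of the 5 H3K36 writers went from 0.09 to -0.02 with this correction.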

How the data were processed

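RNA of sorted CD69+DP cells from 2 control and 2 Foxa1/2cKO samples was sequenced. The authors used mm10 and RefSeq genes for alignment and HTSeq for counting, and the labels name TopHat, Picard and DESeq2. The deposited values are FPKM per gene and sample, whose divisors were proportional to median-of-ratios size factors (0.867 to 1.20). The tool that made them is not given in the sources used here. Strand use and overlapping genes could not be checked. The steps of the FPKM values gave whole reads for 100% of 16069 genes above 0, with a tolerance of 0.002 reads. limma 3.58.1 (R 4.3.3) with a mean-variance trend was fitted to log2(FPKM + 1) over 10776 genes, two-sided, with Benjamini-Hochberg adjustment. Fold changes are on that scale, which understates changes of low genes. Samples are the replicates. Intervals cover 95%, and floors of 3 reads cover counting error only.

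Fold changes are given for 23 genes: the 12 with the lowest p, the most abundant tested gene of each role, *Kdm5c*, *Kdm6a*, *Ezh2*, *Kdm6b*, *Setdb1*, *Dot1l* and *Kmt2d*. *Suv420h2* and *Jmjd1c* were chosen after their values were seen. The genes, lists and motifs were chosen with earlier results of these data known. Alternatives were a pseudocount of 0.1, no filter, upper-quartile scaling, a replicate block, a length correction and leaving out each sample, and, chosen after seeing the data, limma-voom on recovered reads.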

Additional observations from a re-analysis of the deposited data

How the results depend on the processing

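The number of genes past limma's adjusted threshold, 1 over all genes, was 0 with a pseudocount of 0.1, with no filter and with limma-voom, and 0 to 2695 as each sample was left out (0 without either control, 2695 without Foxa1/2cKO 1 and 24 without Foxa1/2cKO 2). Without Foxa1/2cKO 1 the lone knockout is assumed to vary like the controls. Writers at an unadjusted p under 0.05, 5 in all, then numbered 13, with a range of 0 to 13 over the samples left out, 0 without control 2 and 1 (*Setd8*) without control 1. With no filter the number was 5, but *Suv39h1* was in it and *Setd4* was not. For erasers, 1 in all, the range was 0 to 12, with 12 without Foxa1/2cKO 1, 2 without Foxa1/2cKO 2 and 0 without either control. The writer median of -0.024 was -0.061 with the length correction, also with the block, and ranged from -0.035 to 0.019 over the samples left out. The eraser median of 0.19 ranged from 0.037 without Foxa1/2cKO 2 to 0.321 without Foxa1/2cKO 1.

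Numbers of samples are not stated to pair them, and the correlation of the replicate differences in the 2 groups was -0.06. With the replicate block, 0 erasers (*Kdm6a* lost) and 4 writers (*Setd1b* lost) were at an unadjusted p under 0.05, and with the length correction added 0 erasers also and 2 genes over all genes past the adjusted threshold. The block moved no other count of calls by over 1.5 times.

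Of 253 fold changes of the 23 named genes under other settings, 12 changed sign, all of them under 0.05 in size, and the cause was not tested. *Setdb1* was at -0.011 with the length correction (with and without the block) and ranged from -0.003 to 0.034 over the samples left out. *Setd5* was at -0.041 with it, at -0.005 with upper-quartile scaling, and ranged from -0.005 to 0.019. *Dot1l* ranged from -0.047 to 0.006, *Kdm4a* from -0.016 to 0.153, *Kdm1a* from -0.009 to 0.281 and *Kdm3a* from -0.005 to 0.416. In 15 of the 253 the adjusted p was under 0.05, all without Foxa1/2cKO 1. With all samples kept, the adjusted p of the named genes was 0.832 to 0.999. Tested writers and erasers had 70 reads or more in each sample.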
